A study of Homo sapiens with 6 samples.

Results

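A set of 10 genes that mark the epithelial-mesenchymal transition (EMT) were followed in MDA-MB-231, an established human line of triple-negative breast cancer. The set holds 6 transcription factors (SNAI1, SNAI2, ZEB1, ZEB2, TWIST1 and TWIST2), 2 cadherins (CDH1 and CDH2), the intermediate filament gene VIM and the matrix gene FN1. Members were chosen by gene name, with results of the same contrast in view, and were looked up in the authors' deposited table, which lists 7150 genes past the authors' thresholds. In it 5 of the 10 were found, SNAI1, SNAI2 and VIM higher in shikonin and ZEB1 and FN1 lower, while ZEB2, TWIST1, TWIST2, CDH1 and CDH2 were not listed. No cadherin of the set is therefore described by a value. The study had 3 control libraries, from wild-type cells with no treatment, and 3 libraries from wild-type cells of the same line given shikonin, a plant naphthoquinone, at 0.5 µM (the unit is read as micromolar) for 24 h. Both groups grew in DMEM with fetal bovine serum, and no vehicle for the controls is named in the sources used here. All libraries come from 1 established line in culture, and the labels do not say whether replicates were separate cultures, so p-values measure the spread between these libraries, which may be technical. With 0 columns of per-sample values in the table, library depth is unknown and no value per library can be shown. Positive fold changes carry the authors' mark for higher genes and are read as higher in shikonin, since the header names no numerator.

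In EMT, epithelial cells give up their cell-cell junctions and take on a motile, mesenchymal form. SNAIL (SNAI1), SLUG (SNAI2) and the ZEB proteins are zinc finger repressors that bind E-boxes in the promoters of epithelial genes, E-cadherin (CDH1) foremost, while TWIST proteins are basic helix-loop-helix factors. A switch from E-cadherin to N-cadherin (CDH2) and a gain of vimentin and fibronectin are the usual readouts. MDA-MB-231 is known as a mesenchymal-like line, so these genes report here on cells that already stand near the mesenchymal end.

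Promoter windows are shown for VIM, FN1 and ZEB1, the listed genes with an entry in the RefSeq promoter table (GRCh38.p14), because 1 of them rose and the others fell. Of the 10 genes, 6 had an entry and 5 of these were read (VIM, FN1, ZEB1, ZEB2 and TWIST2); the window of CDH2 was not used here, and SNAI1 had no entry. Each window read was searched over the 250 bases before the RefSeq start, on both strands, for CACCTG (the E-box core bound by SNAIL and ZEB proteins, a special case of CANNTG), CANNTG, TGACGTCA (a cyclic AMP response element), TGANTCA (AP-1) and GAANNTTC (an inverted pair of heat shock element units). Only bases before the gene's GENCODE 29 start are printed, 5′ to 3′ on the gene's strand. Capitals mark GAANNTTC in VIM (chr10:17227991-17228240, plus strand), TGACGTCA in FN1 (chr2:215436173-215436318, minus strand) and CACCTG or its reverse complement in ZEB1 (chr10:31318167-31318416, plus strand).
VIM: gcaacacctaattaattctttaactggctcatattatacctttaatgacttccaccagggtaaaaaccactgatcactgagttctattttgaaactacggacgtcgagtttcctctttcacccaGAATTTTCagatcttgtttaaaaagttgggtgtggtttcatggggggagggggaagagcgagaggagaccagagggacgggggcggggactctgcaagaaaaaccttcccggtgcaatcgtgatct
FN1: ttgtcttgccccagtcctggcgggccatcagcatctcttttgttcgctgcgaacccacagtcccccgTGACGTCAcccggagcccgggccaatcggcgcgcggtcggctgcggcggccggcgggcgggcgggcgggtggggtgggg
ZEB1: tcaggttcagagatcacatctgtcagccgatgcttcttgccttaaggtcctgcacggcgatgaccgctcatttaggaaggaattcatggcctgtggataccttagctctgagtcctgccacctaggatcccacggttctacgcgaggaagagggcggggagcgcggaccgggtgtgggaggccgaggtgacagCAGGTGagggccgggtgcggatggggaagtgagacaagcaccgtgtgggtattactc

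The VIM window held 1 GAANNTTC, starting 126 bases before the RefSeq start, and 0 matches to CANNTG. A GAANNTTC was present in 5.78% of the 35116 windows of that length in the table. In FN1 the TGACGTCA began 183 bases before the start, a match found in 1.65% of windows, and there was no CANNTG. ZEB1 has 7 RefSeq windows, of which 2 held CACCTG, against 17.5% of all windows. The window printed for ZEB1 is the one that lies before the annotated gene, and its match begins 57 bases before the start. CANNTG, the general E-box, was present in 4 of the 7 ZEB1 windows and in 61.8% of all windows, and TGANTCA in none of the VIM, FN1 and ZEB1 windows and in 6.57% of all. A match describes these letters only.

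SNAI1, the gene of the repressor SNAIL, had the largest difference of the set. Its mean over the 6 libraries was 4134 normalized counts in the authors' deposited table. Solved from that mean and the fold, the implied level was 50.8 normalized counts in control and 8217 in shikonin. The log2 fold change was 7.34 ± 0.17 (standard error) in the authors' deposited table, a 162-fold rise with a 95% interval of 128 to 205. Its Wald score, 42.5, ranked first of the 14252 genes tested, and its adjusted p is listed as 0 in the authors' deposited table. That number of tested genes was recovered from the listed p and adjusted p. SNAI1 lies on chromosome 20 from 49982999 to 49988886 (GRCh38, GENCODE 29), and its principal transcript has 3 exons and 1686 nt.

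**Figure D1:**
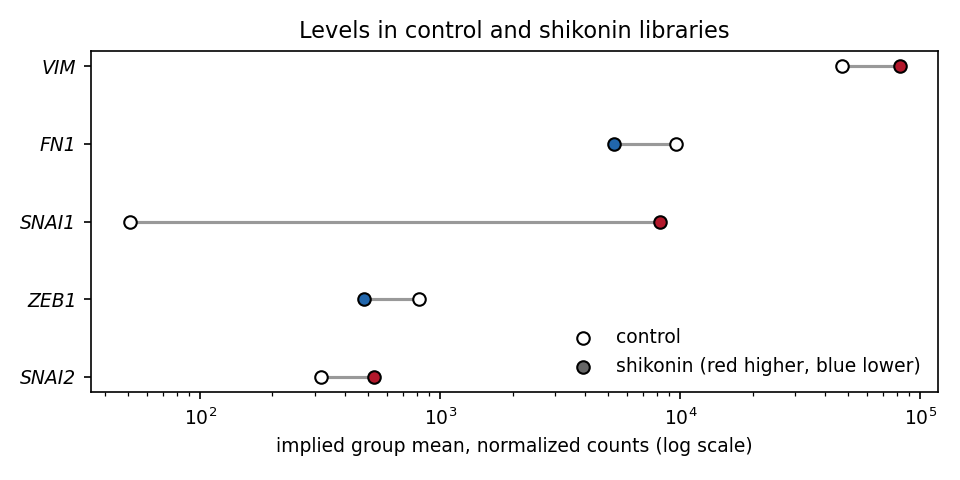
Implied mean normalized counts (x axis, log scale) of the 5 listed genes in control (open circles) and shikonin (filled circles, red where higher and blue where lower). SNAI1 runs from 50.8 to 8217, while the other 4 genes move by less than 2-fold, and values per library are not held.

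SNAI2, which encodes SLUG, the close relative of SNAIL, rose far less. Its mean was 424 normalized counts in the authors' deposited table, from an implied 317 in control to 530.0 in shikonin. The log2 fold change was 0.74 ± 0.16 with an adjusted p of 2e-05 in the authors' deposited table (DESeq2), or 1.67-fold (1.34 to 2.09). SNAI2 lies on chromosome 8 from 48917604 to 48921740, with 3 exons and a principal transcript of 2428 nt. The fold change of SNAI1 exceeded that of SNAI2 by 6.60 ± 0.24 on the log2 scale (95% interval 6.13 to 7.06, taking both errors as independent although both genes were read in the same libraries). As a ratio the 2 folds differed 96.8 times. This is a description, since the contrast had been seen when the genes were chosen.

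The order of the 2 SNAIL family genes changed with treatment. Per kilobase of principal transcript, the implied control level of SNAI2 was 131 normalized counts and that of SNAI1 30.1, so SNAI2 stood 4.33 times higher. In shikonin the level per kilobase was 4874 for SNAI1 and 218 for SNAI2, so SNAI1 stood 22.3 times higher. Their spread over libraries is not held, so these ratios carry no error.

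ZEB1, a zinc finger and homeodomain repressor that the miR-200 family holds down in epithelial cells, was lower. Its mean was 649 normalized counts in the authors' deposited table, from an implied 815 in control to 483 in shikonin. The log2 fold change was -0.75 ± 0.21 with an adjusted p of 8.64e-04 in the authors' deposited table (DESeq2), or 1.69-fold lower (1.26 to 2.25). ZEB1 lies on chromosome 10 from 31318495 to 31529814, with 9 exons in its principal transcript of 5423 nt. The antisense gene ZEB1-AS1 overlaps it and was not listed. The sources used here do not say whether counting used strand, so reads of the 2 cannot be told apart where they overlap. ZEB1 therefore moved opposite to SNAI1 and SNAI2, and its relative ZEB2 was not listed.

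VIM encodes vimentin, the main intermediate filament protein of mesenchymal cells. It was among the most abundant messages of the table, eleventh of the 7150 genes by mean, at 64429 normalized counts in the authors' deposited table. The implied level went from 46972 in control to 81887 in shikonin. The log2 fold change was 0.80 ± 0.13 with an adjusted p of 1.47e-09 in the authors' deposited table (DESeq2), or 1.74-fold higher (1.47 to 2.07). VIM lies on chromosome 10 from 17228259 to 17237593, with 10 exons and 2135 nt, and VIM-AS1, on the other strand, was not listed.

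FN1 encodes fibronectin, a matrix glycoprotein that integrins bind. Its mean was 7451 normalized counts in the authors' deposited table, from an implied 9589 in control to 5312 in shikonin. The log2 fold change was -0.85 ± 0.22 with an adjusted p of 2.59e-04 in the authors' deposited table (DESeq2), or 1.80-fold lower (1.34 to 2.43). FN1 lies on chromosome 2 from 215360440 to 215436172, with 44 exons in a principal transcript of 7898 nt. The 2 mesenchymal markers of the set thus differed in sign, VIM higher and FN1 lower. In a bulk culture, fewer cells expressing a gene and less RNA per cell cannot be told apart, for FN1 and every other gene here.

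**Figure D2:**
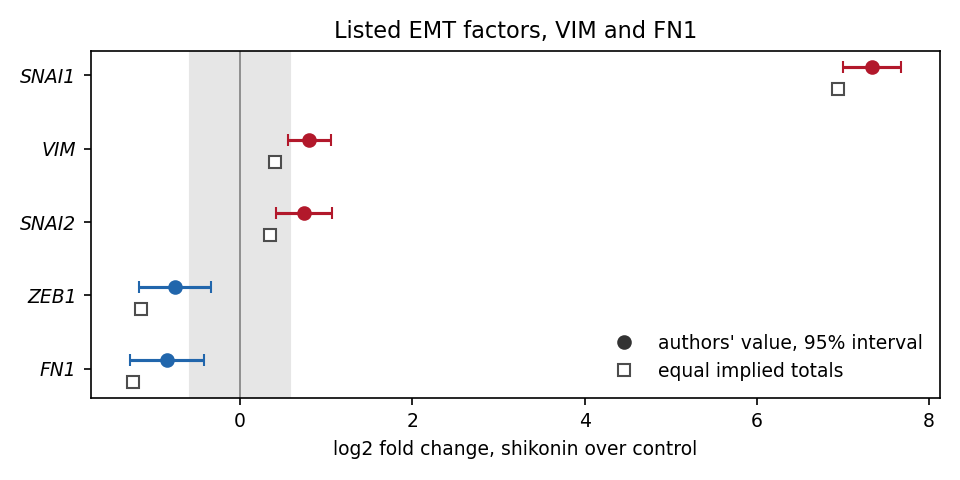
Log2 fold change, shikonin over control (x axis), of the 5 listed genes, with the authors' value and its 95% interval (circles, bars) and the value with equal implied totals (squares); grey spans folds below 1.5. SNAI1 is at 7.34, and the intervals of the other 4 reach into the grey band.

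Of the 10 genes, 5 were listed, against 50.2% of all genes tested, 3 higher against 25.5% and 2 lower against 24.7%. Since the genes were chosen with this contrast known, nothing is read from these shares. SNAI1 was the 1 member at least 2-fold changed, and the 1 whose interval lay wholly beyond 1.5-fold, the authors' threshold. Intervals of VIM, SNAI2, FN1 and ZEB1 all reached inside it. The smallest differences in the set were those of SNAI2 (1.67-fold) and ZEB1 (1.69-fold). The listed genes closest to the threshold were SPR and C20orf27 on the higher side and MEPCE and MIEF2 on the lower, at log2 fold changes of 0.59 and -0.59 in the authors' deposited table. A member just outside has no value here, because a gene that was tested and did not pass cannot be told from one that was not tested.

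The calls for VIM and SNAI2 depended on scaling. Summed over listed genes, implied totals were 1.31 times higher in shikonin, a log2 difference of 0.39. With both totals set equal, VIM stood at 0.41 and SNAI2 at 0.35 on the log2 scale, both below the 1.5-fold threshold of 0.58 and still above 0. FN1 and ZEB1 moved further down, to -1.25 and -1.15, and SNAI1 stood at 6.94. That scaling leaves 1 member higher and 2 lower, against 3 and 2 with the authors' scaling.

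Ordered by level per kilobase in control, VIM came first with 22001 normalized counts, then FN1 with 1214, ZEB1 with 150.2, SNAI2 with 131 and SNAI1 with 30.1. In shikonin the order was VIM with 38354, SNAI1 with 4874, FN1 with 673, SNAI2 with 218 and ZEB1 with 89.1. SNAI1 went from the lowest of the 5 to the second highest, above the FN1 level. Which neighbours differ beyond the spread of libraries cannot be given without values per library.

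**Figure D3:**
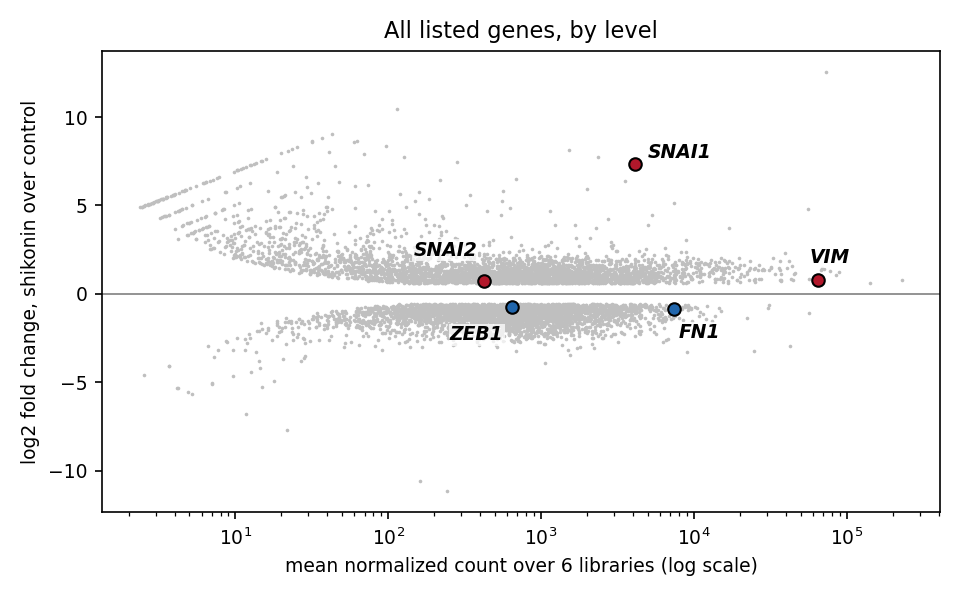
Log2 fold change (y axis) against the mean normalized count over the 6 libraries (x axis, log scale) for all listed genes (grey) and the 5 members (red higher, blue lower). SNAI1, at a mean of 4134, stands above the bulk of genes of that level, and the other 4 members lie along the edge of the listed genes.

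By size of rise, SNAI1 was number 25 of all 7150 listed genes. Of the 6039 listed genes whose mean reached 100 normalized counts it was the seventh. Just above it in the authors' deposited table stood SMIM11A at 7.77 ± 1.51, ID2 at 7.73 ± 0.22 and XIRP1 at 7.45 ± 0.80 on the log2 scale. Among those next below were a gene without a name in the table (ENSG00000267303) at 6.42 ± 1.12 and ARC at 6.39 ± 0.62. SNAI1 had the smallest standard error of the genes named here and the highest implied level in shikonin. The interval of ID2, whose product blocks DNA binding by helix-loop-helix factors, overlapped that of SNAI1 (158-fold to 286-fold). Likeness here rests on 1 contrast only.

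Transcript length went with direction across the table, so its values stand beside the members. SNAI1 belongs to the decile of principal transcripts from 1559 to 1966 nt, in which 91.3% of listed genes were higher and the median log2 fold change was 1.00. VIM and SNAI2 fall in the decile from 1966 to 2508 nt, with 81.7% higher and a median of 0.93, slightly above the values of both genes. ZEB1 falls in the decile from 5042 to 6139 nt, with 11.5% higher and a median of -1.04. FN1 falls in that from 6141 to 8008 nt, with 7.40% higher and a median of -1.22, so that ZEB1 and FN1 fell less than the median of their deciles. With the transcript of longest coding sequence instead, SNAI2 moved to a decile with 65.9% higher and FN1 to one with 4.64%. All 5 members had the direction most common at their length, and SNAI1 alone lay far from its decile's median. The part of length in these differences was not tested.

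**Figure D4:**
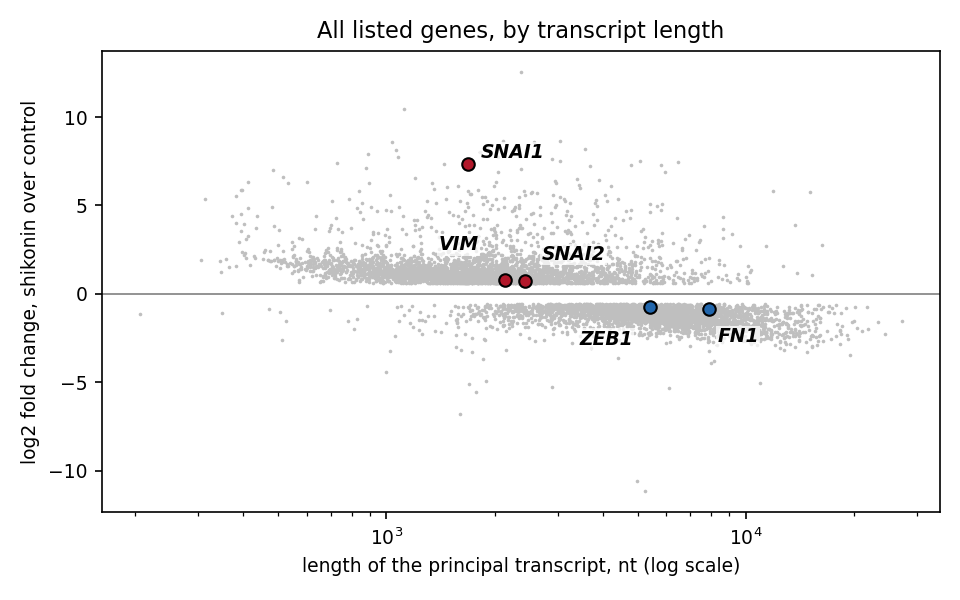
Log2 fold change (y axis) against principal transcript length in nt (x axis, log scale) for listed genes (grey) and the 5 members (red higher, blue lower). VIM, SNAI2, ZEB1 and FN1 lie within the band of genes of their length, and SNAI1, at 1686 nt, lies above it.

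The other genes of the pathway are given by counts over every gene named in a list, to be read against the 25.5% listed as higher and 24.7% as lower over all genes tested. Among 45 ligands, receptors and transducers of EMT signals, 8 were higher, 19 (42.2%) lower and 18 not listed, with a median log2 fold change of -0.89. Over all listed genes the median was 0.60 and 50.8% were higher. The TGF-beta transducer SMAD3 was, in the authors' deposited table, 3.52-fold lower (2.97 to 4.17), NOTCH2 4.41-fold (3.31 to 5.87) and the receptor EGFR 5.96-fold (4.73 to 7.52). On the higher side, the Notch target HEY1 rose, in the authors' deposited table, 21.3-fold (13.8 to 32.7) and the ligand BMP4 2.95-fold (2.38 to 3.66). Of 24 other factors known to drive EMT, 4 were higher, 6 lower and 14 not listed, a lower share near that over all genes tested. SOX4 was, in the authors' deposited table, 3.15-fold higher (2.45 to 4.03) and TEAD1 4.55-fold lower (3.69 to 5.59). The median length of the listed signal genes was 5900 nt, in the length decile of ZEB1.

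Lists were also counted for the proteins through which SNAIL and ZEB repress, and for those that degrade, stabilise or localize SNAIL. Of 23 corepressors 2 were higher, 8 (34.8%) lower and 13 not listed, against 24.7% lower over all genes tested. SIN3A was, in the authors' deposited table, 2.78-fold lower (2.01 to 3.84) and RCOR1 2.71-fold lower (2.10 to 3.49). The 2 higher were, in the authors' deposited table, EHMT2 at 2.99-fold (2.14 to 4.18) and LOXL3 at 2.19-fold (1.10 to 4.35). Of 43 genes of SNAIL turnover and localization 6 were higher, 20 (46.5%) lower and 17 not listed, or 1 higher and 20 lower with equal totals. BTRC, the F-box protein that recognises phosphorylated SNAIL, was, in the authors' deposited table, 2.83-fold lower (2.19 to 3.67). Larger falls than that of BTRC were, in the authors' deposited table, those of ATM (5.34-fold), USP37 (4.48-fold) and USP47 (3.28-fold). COPS5, a subunit of the COP9 signalosome, was, in the authors' deposited table, 1.81-fold higher (1.45 to 2.27). The list mixes genes that degrade and genes that stabilise SNAIL, so no direction for its stability is read from these examples. The median length of the listed genes was 5772.5 nt for the corepressors and 4150.5 nt for the turnover genes, in length deciles where 11.5% and 31.7% of listed genes were higher, and the part of length in these counts was not tested. These are messages, and SNAIL protein was not measured in the data used here.

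Of 19 factors that hold cells in the epithelial state, 10 (52.6%) were higher, 8 not listed and 1, EHF, lower, against 25.5% higher over all genes tested. The listed ones had a median length of 3034 nt, in a decile where 63.6% of listed genes were higher. EHF fell, in the authors' deposited table, 2.16-fold (1.73 to 2.70). ID4, of the same family as ID2, was, in the authors' deposited table, 28.5-fold higher (21.4 to 38.1). OVOL1 and ESRP1 were also listed as higher, but their implied control means were 0.31 and 0.59 normalized counts, so that their folds rest on few reads. With a mean of at least 100 required, 6 were higher and 1 lower.

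Of 39 epithelial genes that SNAIL, SLUG and ZEB are known to repress, 18 (46.2%) were higher, 4 lower and 17 not listed, against 25.5% higher over all genes tested. The median log2 fold change of those listed was 1.26, and their median length was 2546 nt, in the decile from 2512 to 3300 nt, where 63.6% of listed genes were higher. The claudin gene CLDN7 was, in the authors' deposited table, 3.60-fold (2.88 to 4.51) and the keratin gene KRT18 3.18-fold (2.61 to 3.87) higher. MARVELD3, RAB25, TJP3 and CRB3 had the largest folds, each from an implied control mean of 0.58 to 2.34 normalized counts. The desmosome genes DSP and DSG2 were, in the authors' deposited table, 2.35-fold (1.77 to 3.11) and 1.86-fold (1.47 to 2.36) lower, and the tight junction gene TJP1 2.93-fold lower (1.34 to 6.42). CDH1, the best known target, was not listed, so no direction can be given for it.

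Of 33 cadherins outside the set, 0 were higher, 7 (21.2%) lower and 26 not listed, a lower share below the 24.7% over all genes tested. FAT1, an atypical cadherin, fell, in the authors' deposited table, 9.69-fold (7.23 to 13.0), and CELSR2, a seven-pass cadherin, 4.90-fold (3.75 to 6.39). The median length of these 7 was 11389 nt, where listed genes were mostly lower. Of 26 catenins and junction partners 2 (7.69%) were higher, 6 (23.1%) lower and 18 not listed, or 1 higher and 6 lower with equal totals. The listed ones had a median length of 5141.5 nt, in a decile where 11.5% of listed genes were higher. CTNND1, which encodes p120 catenin and binds the tail of E-cadherin, was, in the authors' deposited table, 2.10-fold lower (1.64 to 2.69).

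**Figure D5:**
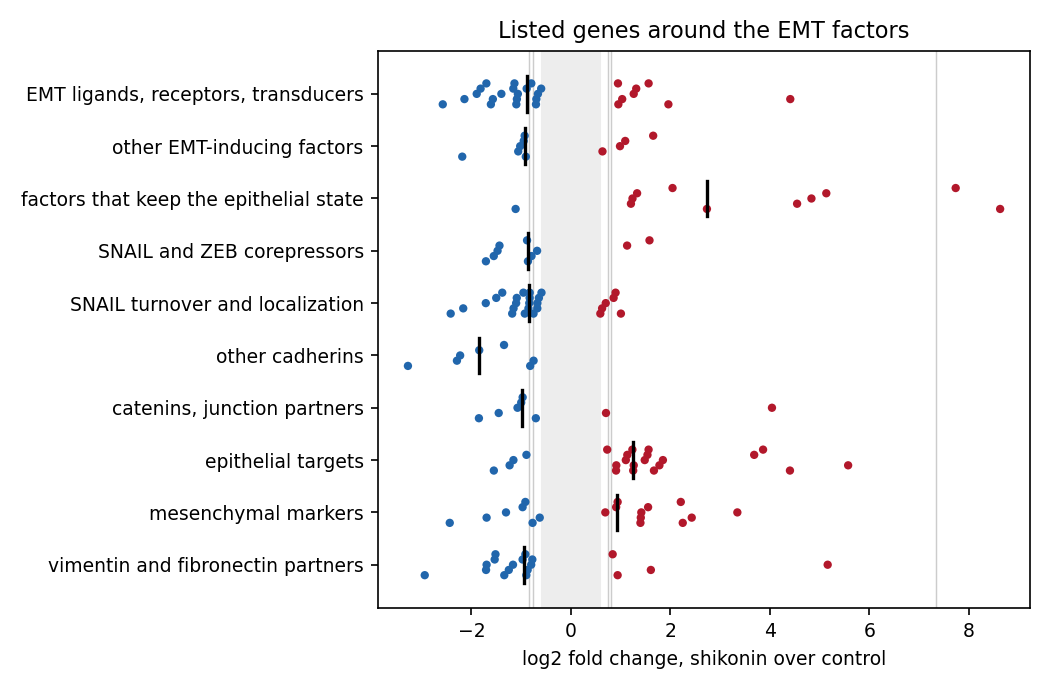
Log2 fold change, shikonin over control (x axis), of listed genes in 10 lists (points, red higher and blue lower; black bars, medians); thin vertical lines mark the 5 members and grey spans folds below 1.5. Medians of the epithelial-state factors, epithelial targets and mesenchymal markers are above 0, and those of the other 7 lists below it.

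Of 52 mesenchymal genes, 11 (21.2%) were higher, 7 (13.5%) lower and 34 not listed, both shares below the 25.5% and 24.7% over all genes tested. The listed ones had a median log2 fold change of 0.92 and a median length of 3581 nt. In the length decile from 3300 to 4186 nt, 31.7% of listed genes were higher and the median was -0.72. The part of length was not tested. The protease gene MMP3 was, in the authors' deposited table, 10.2-fold (6.37 to 16.2) and S100A4 5.38-fold (4.05 to 7.16) higher. FBN1, the fibrillin gene, was, in the authors' deposited table, 5.41-fold (4.01 to 7.30) and COL6A3 2.47-fold (1.79 to 3.42) lower. Of 35 genes whose proteins join vimentin or fibronectin, 4 were higher, 14 (40%) lower and 17 not listed, or 2 higher and 14 lower with equal totals. The median length of those listed was 5119 nt, in the decile from 5042 to 6139 nt, where 11.5% of listed genes were higher. The part of length in this count was not tested either. PLEC, whose product plectin links vimentin filaments to adhesions, was, in the authors' deposited table, 7.67-fold lower (6.11 to 9.62). ITGAV, an integrin subunit that binds fibronectin, was, in the authors' deposited table, 3.24-fold lower (2.58 to 4.07), and the integrin-linked kinase gene ILK 1.79-fold higher (1.51 to 2.12).

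Markers of the line and of other cell types stand beside these values. Of 14 genes known to be high in MDA-MB-231, 4 were higher (S100A4, ANXA1, VIM and CAV1) and 3 lower (MET and EGFR among them), or 2 and 3 with equal totals. The first 2 shares, 28.6% and 21.4%, were near the 25.5% and 24.7% over all genes tested. Luminal epithelial markers were higher in 9 of 14 and lower in 0, with a summed implied level of 25625 normalized counts in control and 68888 in shikonin. CLDN7, KRT18 and most other listed luminal markers were also counted among the epithelial targets above, and FOXA1 among the epithelial-state factors. These counts are therefore not separate results. Over all genes tested 25.5% were higher, and the listed luminal markers had a median length of 1562 nt, in a decile where 91.3% of listed genes were higher. Leukocyte markers were higher in 4 of 12 (3161 and 6229) and fibroblast markers in 2 of 11 (1442 and 7528). Of the fibroblast sums, S100A4, also counted above as a marker of the line, made up 1374 in control and 7397 in shikonin. The other listed fibroblast marker, PDGFRB, had 68.1 and 132. Basal epithelial markers were higher in 2 of 9 (124 and 270.2) and endothelial markers in 1 of 10 (69.3 and 284). In each of these lists 0 were lower. The listed leukocyte and basal markers had median lengths of 1882 and 1500 nt, in deciles where 91.3% and 96.8% of listed genes were higher. For the fibroblast markers the median was 3158.5 nt (63.6% higher), and PECAM1, the 1 endothelial marker listed, has 6831 nt (7.40% higher). The part of length was not tested. CD68 made up 2717 of the leukocyte sum in control and 4295 in shikonin. LYZ was, in the authors' deposited table, 8.83-fold higher (3.39 to 23.0), from an implied control mean of 4.09 normalized counts. CD14 was, in the authors' deposited table, 4.47-fold (3.52 to 5.68) and PECAM1 4.10-fold (2.83 to 5.94) higher. CSF1R, CD68 and PDGFRB were also listed as higher. PTPRC, CD3E, VWF, COL1A1 and DCN, which define those other cells, were not listed, so no direction can be given for them. Of 13 mitochondrially encoded genes, kept for RNA quality, 3 were higher and 2 lower, or 1 and 2 with equal totals. The first 2 shares, 23.1% and 15.4%, were below the 25.5% and 24.7% over all genes tested, and nothing on RNA quality is read from them. The part of RNA quality and of other cell types in the values of SNAI1, VIM, FN1 and the others was not tested.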

How the data were processed

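RNA of 6 MDA-MB-231 libraries, 3 control and 3 shikonin, was sequenced from NEBNext Ultra RNA libraries, per the labels' protocols. The tools fastp, HISAT2 2.0.5 and DESeq2 and the hg38 build are named in the submitters' processing notes; a counter and an annotation are not named in the sources used here. The deposited table of the authors gives, per the file headers, a mean normalized count (a signal over all libraries), a log2 fold change with its standard error, a Wald score (checked to equal their ratio), and p-values with adjusted values. In every listed gene the adjusted p was below 0.05 and the fold above 1.5.

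The members and gene lists were chosen with earlier results of these data known. With Python 3.11.15 and pandas 2.3.3, group means were solved from mean and fold, assuming equal weight of both groups, and 95% normal intervals were taken from the standard errors. The number of tested genes was the 1 for which p over adjusted p gave whole ranks (within 0.02 for 90.9% of values; 23.3% at the next best), a recovery tested on simulated data. GENCODE 29 gave positions and lengths for 7142 genes, and RefSeq (GRCh38.p14) the promoters. Named genes were all members, each listed gene of a list with up to 6 listed and otherwise examples from the 4 largest rises and 4 largest falls, 3 neighbours of SNAI1 on each side, and the 2 genes per direction closest to the threshold. Some genes that this rule names are not reported here. The edgeR test planned for counts per sample could not be run, since no per-sample values are held. Alternatives were a stricter adjusted p, a 2-fold minimum, a minimum mean of 100, equal implied totals and the interval end nearest 0.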

Additional observations from a re-analysis of the deposited data

How the results depend on the processing

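No paired analysis was possible because the table holds no per-sample values; for the same reason the fits leaving out a replicate, without a filter on counts, or with other size factors were not run. With an adjusted p below 0.001 or a mean of at least 100, members kept 3 higher and 2 lower. A 2-fold minimum left 1 higher and 0 lower: VIM (0.80), SNAI2 (0.74), FN1 (-0.85) and ZEB1 (-0.75, log2) no longer passed, by construction. Equal implied totals left 1 higher and 2 lower, with VIM at 0.41 and SNAI2 at 0.35. The interval end nearest 0 fell below 1.5-fold for VIM (0.55), SNAI2 (0.42), FN1 (-0.42) and ZEB1 (-0.34). The difference of SNAI1 and SNAI2, 6.60, is the same under any scaling. Over all lists, 77 genes were higher and 99 lower; a 2-fold minimum left 55 and 60. Of 38 counts of single lists by direction, 14 moved by over 1.5 times with that minimum, 7 with equal totals, 7 with the minimum mean and 6 with the stricter adjusted p. By construction, a count of 0 cannot move under any of these settings, and equal totals cannot move a count of lower genes. The counts that stayed the same are therefore no measure of stability. Genes that would enter under another scaling are not held, and depth per library is unknown.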

Other observations

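MicroRNAs of the miR-200 family are known to hold down ZEB1 and ZEB2. Of 9 genes that make and use microRNAs, 0 were higher, 8 lower and 1 not listed, against 24.7% lower over all genes tested, with a median log2 fold change of -1.65. DICER1, the nuclease that cuts precursors, was, in the authors' deposited table, 7.03-fold lower (5.56 to 8.88), and AGO1, an effector that binds the mature strand, 3.92-fold lower (3.16 to 4.88). DGCR8, the partner of Drosha, was, in the authors' deposited table, 3.24-fold lower (2.55 to 4.13). The median transcript length of the 8 was 8724 nt, where listed genes were mostly lower, and its part was not tested. Of 28 microRNA host and antisense genes, among them MIR200CHG, ZEB1-AS1 and VIM-AS1, 0 were listed, against 50.2% of all genes tested. How many of the 28 were tested is not known, so neither a change nor its absence can be given for them.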
